A study of Mus musculus with 9 samples.

Results

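The interferon-inducible GTPases examined here are 10 genes of the mouse: 7 guanylate-binding proteins (Gbp2, Gbp3, Gbp4, Gbp5, Gbp6, Gbp7 and Gbp9) and 3 immunity-related GTPases (Irgm1, Igtp and Iigp1). They were taken by gene symbol from the 22054 genes of the expression table, all 10 symbols were found, and all 10 passed the filter on low counts in each comparison. Callus RNA was collected 7 days after a femoral fracture fixed with an intramedullary needle in male C57BL/6J mice, which the labels give as 7 weeks of age, and was sequenced in 9 libraries, 3 per group. From the day after surgery the mice received 1 intraperitoneal injection a day for a week: H-151, an inhibitor of STING, at 750 nmol, SR-717, an activator of STING, at 30 mg/kg, or PBS as the control, each in a volume of 200 μl. All 3 groups therefore carried the same fracture, fixation and injection schedule, and no uninjured bone was analysed here. The labels do not say whether a library came from 1 mouse or from pooled mice, so p-values measure the spread between these libraries. The comparison of SR-717 with H-151 is the one made in the study, and the comparisons with PBS ask how far each compound moved the genes from the control.

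Guanylate-binding proteins (GBPs) and immunity-related GTPases (IRGs) are large GTPases that cells make in response to interferons. Interferon-gamma, secreted mainly by T cells and NK cells, binds its receptor and activates the kinases JAK1 and JAK2. The transcription factor IRF1, which this signal induces, is among the factors that switch on the GBP and IRG genes. Type I interferons, which are made when STING is activated, act on many of the same genes through their own receptor. The proteins gather on the vacuoles and membranes of intracellular parasites and bacteria and break them open, and some of them assist the assembly of inflammasomes.

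The promoters are shown first because interferons act through sequence elements in the promoters of the genes they induce. Windows from 250 bases before to 50 bases after the start site, from RefSeq on GRCm38.p6, were at hand for 6 of the 10 genes (7 windows, since Gbp3 has a pair of start sites). The interferon-stimulated response element, bound by IRF factors, was searched as GAAANNGAAA and its reverse complement TTTCNNTTTC. The gamma-activated site, an element found in genes that respond to interferon-gamma, was searched as TTCNNNGAA, which reads the same on both strands. The first motif was found in 6 of the 6 genes and in 3.44% of all 32851 windows, the second in 3 of the 6 genes (Gbp5, Gbp7 and Igtp) and in 8.3% of windows, and both together in those 3 genes and in 0.454% of windows. A gene was counted if any of its windows held the motif, and the Gbp3 window at start site 142560356 held neither. The stretches below stand 5′ to 3′ on the strand of the gene, with the bases of every motif match in capitals: Gbp5 chr3:142496814-142496929 (plus strand), Gbp7 chr3:142530216-142530335 (plus), Gbp3 chr3:142559924-142560043 (plus), Gbp2 chr3:142620543-142620631 (plus), Irgm1 chr11:48871428-48871457 (minus) and Igtp chr11:58199436-58199555 (plus).
Gbp5: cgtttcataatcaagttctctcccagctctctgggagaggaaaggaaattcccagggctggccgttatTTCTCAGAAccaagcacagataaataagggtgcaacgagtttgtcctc
Gbp7: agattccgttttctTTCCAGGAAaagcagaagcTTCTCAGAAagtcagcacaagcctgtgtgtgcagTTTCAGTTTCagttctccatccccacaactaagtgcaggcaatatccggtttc
Gbp3: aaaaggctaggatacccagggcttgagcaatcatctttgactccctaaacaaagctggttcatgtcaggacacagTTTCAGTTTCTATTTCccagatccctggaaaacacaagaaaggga
Gbp2: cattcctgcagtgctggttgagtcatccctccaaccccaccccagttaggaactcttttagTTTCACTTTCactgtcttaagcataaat
Irgm1: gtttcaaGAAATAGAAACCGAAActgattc
Igtp: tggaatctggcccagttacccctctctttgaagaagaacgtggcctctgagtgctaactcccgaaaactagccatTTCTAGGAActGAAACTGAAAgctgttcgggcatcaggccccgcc
The printed part of Gbp5 holds 1 gamma-activated match, and its other gamma-activated match and its response element, which begins 165 bases before the start, lie upstream of it. Gbp7 holds 2 gamma-activated matches and 1 response element. The matches of Gbp3 and Irgm1 are pairs of overlapping response elements, and in Igtp a gamma-activated match is followed within the same stretch by a response element. These are matches of letters in a window and not measured binding sites. Some printed bases lie in annotated exons: 30 of 30 for Irgm1, 30 of 89 for Gbp2, 30 of 116 for Gbp5 and 18 of 120 for Gbp3.

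Library totals lay between 16987398 and 23272480 expected counts, which are estimated read counts that need not be whole. Values below are CPM, counts scaled to library size after TMM normalization, unless TPM, the length-scaled value in the deposited table, is named. One library stood apart from the rest: on the first principal component of log2 CPM (46.6% of the variance) SR-717 replicate 1 lay at 100.6 and PBS replicate 1 at 38.8, while the other 7 libraries lay between -28.8 and -4.03. Osteoblast markers summed to between 22367 and 44752 CPM, most of it Col1a1 (21135 CPM in SR-717 replicate 1). Bglap, of the same list, lay at 62.3 CPM in SR-717 replicate 1 and at 125 to 369 CPM in the other libraries. Osteoblast transcripts were thus present in every library, beside skeletal muscle markers at 3965 to 23061 CPM. The comparisons that include SR-717 replicate 1 are therefore given with and without it.

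All 10 genes reached their highest level in the same library, SR-717 replicate 1, where they summed to 1004 CPM. In the other 8 libraries the sum lay between 80.6 and 192 CPM, without separation of the H-151, PBS and remaining SR-717 libraries. SR-717 replicate 1 was the highest library for 26.7% of all 14294 expressed genes. It was at least 2-fold above the highest of the other 8 libraries for 10 of the 10 GTPases and for 5.43% of expressed genes, and at least 3-fold above their median for 10 of the 10 and for 7.35%. PBS replicate 1 came second for 8 of the 10, with SR-717 replicate 1 first and PBS replicate 1 second in 11.8% of expressed genes. The second library was PBS replicate 3 for Gbp3 and SR-717 replicate 2 for Gbp4. In bulk tissue, more cells that express these genes and more RNA per cell cannot be told apart.

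**Figure D1:**
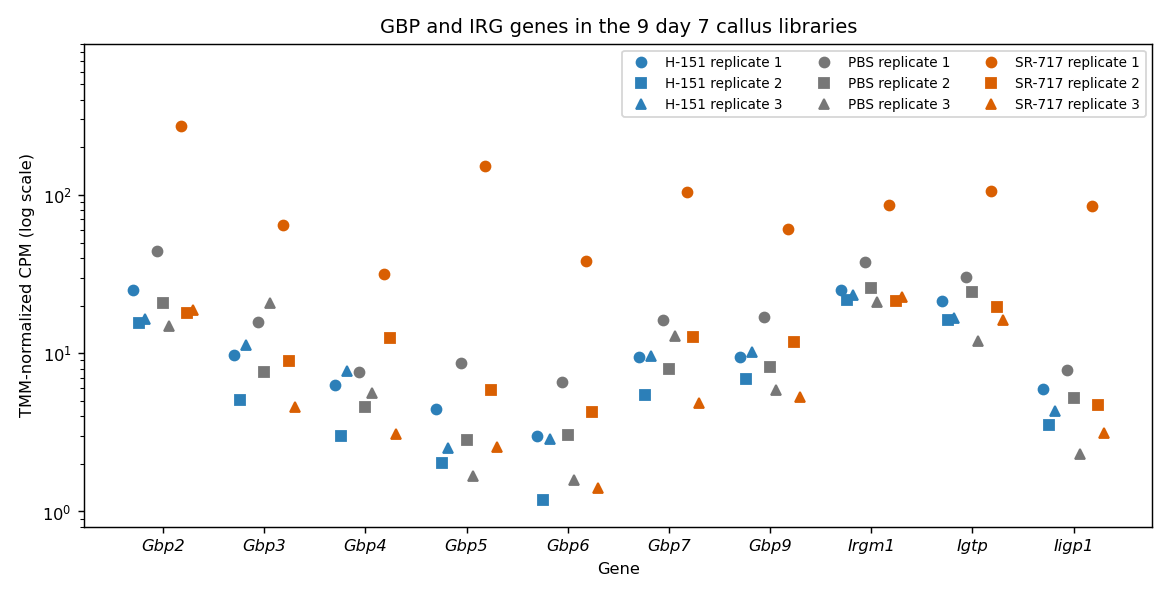
TMM-scaled CPM (log axis) of the 10 GTPase genes in each of the 9 libraries. The genes stand side by side on 1 axis, with points coloured by group and marked by replicate number. SR-717 replicate 1 is the highest point for every gene, from 31.5 CPM for Gbp4 to 275 CPM for Gbp2. The other SR-717 libraries lie among the H-151 and PBS libraries for most genes. The exceptions are Gbp4, with SR-717 replicate 2 above them, and Gbp3, Gbp7 and Gbp9, with SR-717 replicate 3 below them.

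Among the guanylate-binding proteins, Gbp5 differed most between libraries. Gbp5, which is reported to promote assembly of the NLRP3 inflammasome, had 152, 5.82 and 2.57 CPM in the libraries of SR-717 (replicates 1, 2 and 3 in this order, here and below), 4.46, 2.02 and 2.50 CPM with H-151, and 8.68, 2.83 and 1.69 CPM with PBS. Its level in SR-717 replicate 1 was 56.4-fold the median of the other 8 libraries and 17.5-fold the highest of them, and the ranges of the 3 groups overlapped. The log2 fold change of SR-717 against H-151 was 4.14 (standard error 1.59, unadjusted p = 0.0382, adjusted p = 0.996, edgeR's quasi-likelihood test). Without SR-717 replicate 1 it was 0.48 (standard error 0.48, unadjusted p = 0.352, edgeR).

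Gbp2, which coats the vacuole of Toxoplasma and is the most abundant GBP per length here, had 275, 18.0 and 18.7 CPM with SR-717, 25.2, 15.6 and 16.5 CPM with H-151, and 44.0, 20.9 and 14.8 CPM with PBS. SR-717 replicates 2 and 3 lay inside the ranges of both other groups. The log2 fold change against H-151 was 2.43 (standard error 1.12) with all libraries and -0.07 without SR-717 replicate 1. Gbp7 had 105, 12.6 and 4.85 CPM with SR-717, 9.42, 5.42 and 9.56 CPM with H-151, and 16.1, 7.91 and 12.8 CPM with PBS. Here SR-717 replicate 3 was the lowest of the 9 libraries and replicate 1 the highest. Gbp3 had 64.7, 8.96 and 4.55 CPM with SR-717, 9.81, 5.03 and 11.3 CPM with H-151, and 15.7, 7.65 and 20.9 CPM with PBS. The SR-717 group thus held both the highest and the lowest Gbp3 value, and PBS replicate 3, the lowest library for 5 of the 10 genes, was second.

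The remaining 3 GBPs lie together on chromosome 5. Their level in SR-717 replicate 1 was 5.29-fold (Gbp4), 6.92-fold (Gbp9) and 12.9-fold (Gbp6) the median of the other 8 libraries, where it was 6.90-fold for Gbp3. Gbp4 had 31.5, 12.4 and 3.10 CPM with SR-717, 6.28, 3.01 and 7.67 CPM with H-151, and 7.65, 4.57 and 5.62 CPM with PBS. Both SR-717 replicates 1 and 2 thus lay above the other 7 libraries in CPM. In TPM this held for SR-717 replicate 1 only, as PBS replicate 1 had 5.22 TPM and SR-717 replicate 2 had 4.85. Gbp9 had 61.3, 11.8 and 5.31 CPM with SR-717, 9.52, 6.85 and 10.2 CPM with H-151, and 16.96, 8.20 and 5.85 CPM with PBS. Gbp6 had 38.0, 4.27 and 1.40 CPM with SR-717, 2.99, 1.18 and 2.89 CPM with H-151, and 6.57, 3.04 and 1.57 CPM with PBS. For Gbp9 and Gbp6 the order was the same at the top, with SR-717 replicate 1 followed by PBS replicate 1 and SR-717 replicate 2. Gbp6 counts are uncertain, because 64.5% of its 100-base transcript stretches occur in another gene, mainly Gm43302 and Gbp10, and its expected counts were not whole in 9 of 9 libraries.

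The immunity-related GTPases had the same highest library, with levels there of 3.74-fold to 18.9-fold the median of the other 8, where the GBPs ran from 5.29-fold to 56.4-fold. Irgm1, a regulatory IRG of the Golgi and lysosomal membranes that keeps the effector IRGs inactive on host membranes, had 85.9, 21.4 and 22.7 CPM with SR-717, 25.3, 21.7 and 23.2 CPM with H-151, and 38.0, 25.8 and 21.0 CPM with PBS. Its level in SR-717 replicate 1 was 3.74-fold the median of the other 8 libraries, the smallest excess of the 10, and the other 8 libraries lay within 1.81-fold of each other. Igtp (also called Irgm3), the regulatory IRG of the endoplasmic reticulum, had 105, 19.5 and 16.2 CPM with SR-717, 21.5, 16.3 and 16.7 CPM with H-151, and 30.2, 24.4 and 11.9 CPM with PBS. PBS replicates 1 and 2 were the next highest and PBS replicate 3 the lowest, so the PBS group spanned the 8 libraries. Iigp1 (also called Irga6), an effector IRG that is loaded onto the parasite vacuole, had 85.6, 4.74 and 3.15 CPM with SR-717, 5.98, 3.50 and 4.34 CPM with H-151, and 7.88, 5.24 and 2.30 CPM with PBS. Its excess in SR-717 replicate 1 was 18.9-fold over the median of the other 8, larger than that of either regulatory IRG.

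Per transcript length the genes formed an order that the 1 outlying library rearranged. The median TPM over the 8 other libraries was 19.4 for Irgm1 (17.4 to 33.4), 16.3 for Igtp (10.7 to 28.7) and 13.3 for Gbp2 (10.5 to 33.3), and these 3 did not separate from each other. Gbp3 followed at 6.88, Gbp9 at 3.91, Gbp7 at 3.26, Iigp1 at 2.72, Gbp4 at 2.55, Gbp5 at 1.71 and Gbp6 at 1.46, with the range of each gene overlapping that of the next. In SR-717 replicate 1 the order was led by Gbp2 at 182 TPM, Igtp at 89.3 and Gbp5 at 82.4. Gbp5, the ninth in the 8 libraries, was the third there, while Irgm1 moved from the first to the fourth at 66.7 TPM.

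In SR-717 against H-151, the log2 fold change was positive for 10 of the 10 GTPases, with a median of 1.94 against 0.02 over all genes tested, and ranged from 0.88 (Irgm1) to 4.14 (Gbp5). At thresholds of an unadjusted p under 0.05 and a change of at least 1.5-fold, 1 of the 10 was called higher (Gbp5), where 0.367% of the 14151 genes tested were. At an adjusted p under 0.05, 0 genes of any kind were called in edgeR's quasi-likelihood test (0% of those tested), and 146 genes (1.03%) had an unadjusted p under 0.05. DESeq2's Wald test called Gbp6 and Gbp7 and gave no p for Gbp2, Gbp5 and Iigp1. It gave 1 gene an adjusted p under 0.05 (7.4e-11), which was higher with SR-717 and not among the 10. The groups did not separate for any of the 10, while they separated upwards for 2.7% of expressed genes.

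The comparison rested on SR-717 replicate 1. Without it, 4 of the 10 log2 fold changes were positive, the median was -0.04, the values ran from -0.37 (Gbp3) to 0.48 (Gbp5), and 0 were called, where 0.498% of genes tested were called higher. Without SR-717 replicate 3, 9 of the 10 were called (3.79% of genes tested), and without SR-717 replicate 2, 3 were (1.5%). Leaving out H-151 replicate 1, 2 or 3 removed the call of Gbp5 and left 10 of 10 positive.

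In SR-717 against PBS, the log2 fold change was again positive for 10 of the 10, with a median of 1.57 and a range from 0.62 (Irgm1) to 3.61 (Gbp5, standard error 1.62). No member was called higher, where 0.27% of the 14070 genes tested were, and 97 genes (0.689%) had an unadjusted p under 0.05 (edgeR). An adjusted p under 0.05 was given to 0 genes by edgeR and by DESeq2's Wald test, which gave a p for 7 of the 10. No gene of the 10 had separated groups (1.62% of expressed genes did, upwards). Without SR-717 replicate 1, 1 of the 10 was positive (Gbp4, 0.39), the median was -0.37 and 0 were called (0.423% of genes tested). Without SR-717 replicate 3, 5 were called (1.82% of genes tested), and without SR-717 replicate 2, 2 were (0.541%). With the replicate number as a block 10 of the 10 were positive, with a median of 0.83 and 0 called (2.43% of genes tested were called higher in that fit). With both SR-717 replicate 1 and PBS replicate 1 left out, an alternative chosen after the data were seen, 6 of the 10 were positive with a median of 0.07.

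In H-151 against PBS, 0 of the 10 log2 fold changes were positive, with a median of -0.38 against -0.02 over all genes tested and a range from -0.76 (Gbp3, standard error 0.44) to -0.07 (Gbp4). At the thresholds above 0 of the 10 were called, where 0.163% of the 14085 genes tested were called lower, 91 genes (0.646%) had an unadjusted p under 0.05 and 0 had an adjusted p under 0.05 (edgeR, and DESeq2's Wald test as well). The groups overlapped for all 10, and were separated downwards for 2.32% of expressed genes. With the replicate number as a block, Gbp3 was called lower with a log2 fold change of -0.72 (standard error 0.17, unadjusted p = 0.0057, adjusted p = 1, edgeR), where 0.433% of genes tested were called lower. Gbp7 had -0.58 (unadjusted p = 0.0192) in that fit, just under the fold threshold. Without PBS replicate 2, Gbp3 and Gbp7 were called lower (1.52% of genes tested). Without PBS replicate 1, 8 of the 10 were positive with a median of 0.06. This comparison and the previous one share the PBS libraries and are not independent.

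**Figure D2:**
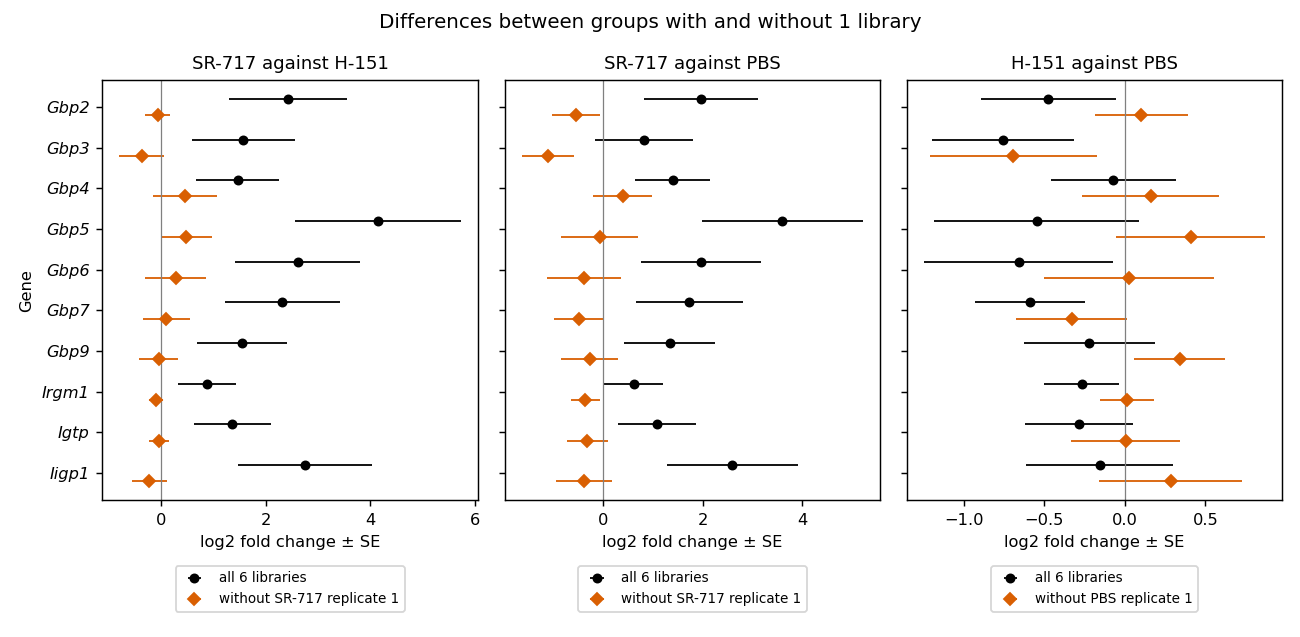
Log2 fold change ± standard error (edgeR) of each gene in the 3 comparisons, with all 6 libraries (black circles) and without 1 library (orange diamonds: without SR-717 replicate 1 in the first and second panels, without PBS replicate 1 in the last). With all libraries the medians are 1.94, 1.57 and -0.38, and without the 1 library they are -0.04, -0.37 and 0.06.

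The same-numbered libraries gave a changing picture. In replicate 1 the SR-717 library was above the H-151 library for 10 of the 10 genes with a median log2 ratio of 3.08, in replicate 2 for 9 with 0.81, and in replicate 3 for 2 with -0.70. Against PBS, SR-717 was higher for 10, 6 and 5 of the 10, and H-151 was higher for 0, 0 and 8.

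How the 10 genes moved together depended on the outlying library as well. Over the 9 libraries, Pearson's r between the log2 CPM of a pair of genes lay between 0.73 and 0.99, with a median of 0.94 over 45 pairs. Over the 8 libraries without SR-717 replicate 1, the median was 0.72 and the range ran from 0.005 (Gbp3 with Igtp) to 0.96 (Gbp2 with Irgm1). In those 8 libraries Igtp and Iigp1 correlated at 0.96, Gbp6 and Gbp9 at 0.94, and Gbp3 and Gbp7 at 0.89. Gbp3 correlated at 0.26 with Gbp2, its neighbour on chromosome 3, and at 0.20 with Gbp5. Gbp4 correlated at 0.19 with Irgm1 and at 0.26 with Gbp2. Points in these correlations are libraries that share depth and tissue makeup, and the values are a description.

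**Figure D3:**
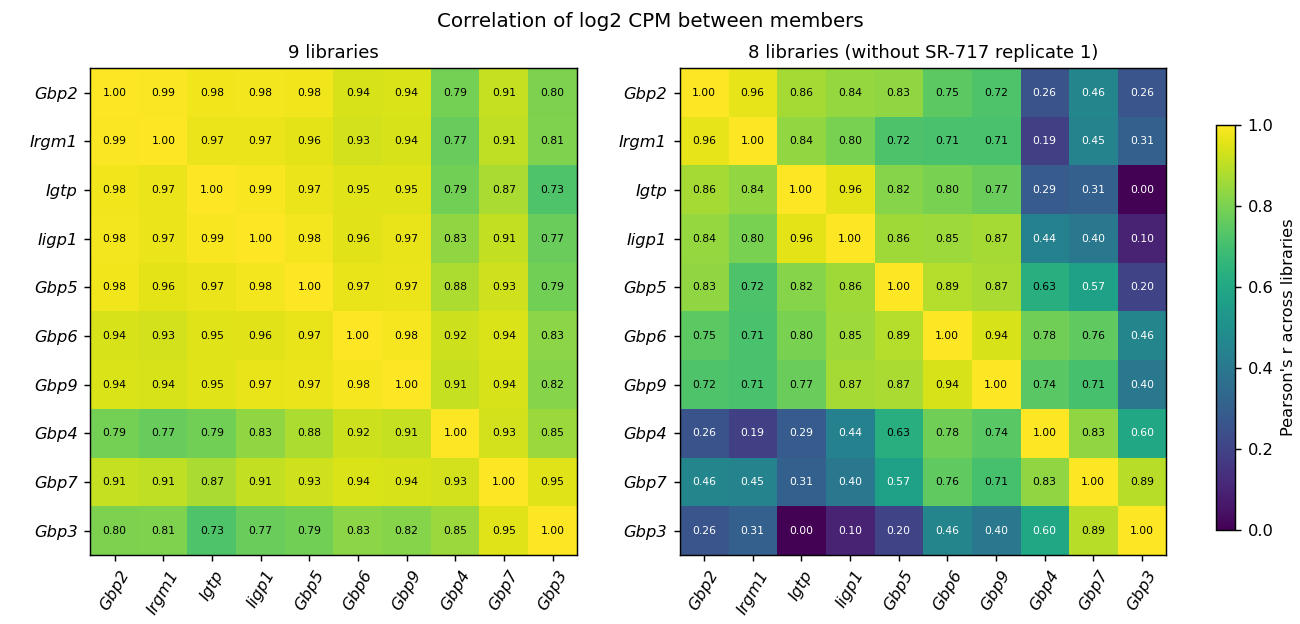
Pearson's r between the log2 CPM of each pair of the 10 genes, over 9 libraries (left) and over the 8 libraries without SR-717 replicate 1 (right), on 1 colour scale. The left panel is high throughout (median 0.94). In the right panel low values include Gbp3 with Igtp (0.005), Iigp1 (0.10) and Gbp5 (0.20), and Gbp4 with Irgm1 (0.19).

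The genes most like the 10 were found by correlating log2 CPM with the mean centred profile of the GTPases. Over 9 libraries the 10 highest were Pik3ap1, Tmco6, Ptprc, Ptprj, Bcl2a1d, Lcp2, Gadd45a, Trim34a, H2-Aa and Tgtp1, with r between 0.98 and 0.99. Ptprc encodes the leukocyte marker CD45, Lcp2 the adaptor SLP-76 of blood cells, H2-Aa an MHC class II chain, and Tgtp1 a further IRG. Over 8 libraries they were Itga1, Trim30a, Stxbp5, Ifit3, Clec9a, Pik3ap1, Mndal, Slamf7, Tmco6 and Tmem51, with r between 0.94 and 0.98, and Pik3ap1 and Tmco6 were the 2 genes on both lists. An r above 0.9 was reached by 698 of 14284 genes (4.89%) over 9 libraries and by 52 (0.364%) over 8.

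The genes lie in clusters. On GRCm38, Gbp5, Gbp7, Gbp3 and Gbp2 fill chromosome 3 from 142493978 to 142638008 on the plus strand, and Gbp9, Gbp4 and Gbp6 fill chromosome 5 from 105077630 to 105293698 on the minus strand. Irgm1 (chromosome 11, 48861968 to 48871683, minus strand), Igtp (chromosome 11, 58199556 to 58207591, plus strand) and Iigp1 (chromosome 18, 60376027 to 60392634, plus strand) lie apart. All 10 are annotated as protein-coding. The expressed genes outside the GBP clusters were raised less in SR-717 replicate 1: Pdlim5 and Kyat3, which flank the chromosome 3 cluster, were at 2.14-fold and 1.09-fold the median of the other 8 libraries, and Abcg3 and Lrrc8b, which flank the chromosome 5 cluster, at 2.70-fold and 1.23-fold. Listed interferon-inducible GTPases were passed over in choosing flanking genes, among them Irgm2, which overlaps Igtp and was at 3.29-fold. The nearest other expressed protein-coding genes around Irgm1 were Trim7 at 0.595-fold and Gm5431 at 4.97-fold. Around Igtp they were Mrpl22 at 0.691-fold and 4930438A08Rik at 3.27-fold. Around Iigp1 they were Chsy3, which lies 840028 bases away, at 1.82-fold and Smim3 at 2.27-fold.

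Sequence shared with near copies limits some counts. Igtp shares 162 exonic bases with Irgm2 on the same strand and had counts that were not whole in 5 of 9 libraries, and 10% of the 100-base stretches of Gbp7 occur in the pseudogene Gm43802 or in Gbp3. For Gbp2, Irgm1 and Iigp1 the share was 0%, and for Gbp3, Gbp4, Gbp5 and Gbp9 it was at most 1.65%. Gbp2, Irgm1 and Iigp1 showed the same highest library as the genes with shared stretches. The Gene Ontology terms in the deposited table give GTPase activity for 10 of the 10, cellular response to interferon-gamma for 7, cellular response to interferon-beta for 6, and defense against protozoa for 6. The term for the membrane of a symbiont-containing vacuole is given to 5 genes of the whole table, and all 5 are among the 10 (Gbp2, Gbp3, Gbp7, Gbp9 and Iigp1).

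Most of the other interferon-inducible GTPases followed the same library, with 9 of the 11 found highest in SR-717 replicate 1. Of 11 found, 9 passed the filter on low counts, 9 of 9 were higher with SR-717 than with H-151 (median log2 fold change 1.47), and 2 were called higher, beside the 0.367% of all genes. In the fit that left out SR-717 replicate 1, 5 of 9 were higher, the median was 0.05 and 1 was called. Gm4841, an IRG family gene, had 10.6, 7.79 and 2.57 CPM with SR-717, 1.72, 0.937 and 1.83 CPM with H-151, and 19.8, 2.79 and 1.35 CPM with PBS. All 3 SR-717 libraries lay above all 3 H-151 libraries, and PBS replicate 1 was the highest of the 9. Its log2 fold change against H-151 was 2.21 (standard error 0.57, unadjusted p = 0.00739, adjusted p = 0.996, edgeR), and it was still called without SR-717 replicate 1, at 1.79. In H-151 against PBS it was called lower at -2.41 (unadjusted p = 0.0459, adjusted p = 1.00, edgeR), and without PBS replicate 1 that value was -0.47 and not called. In the blocked fit it was -1.67 and not called either (unadjusted p = 0.075, edgeR). Tgtp2, an IRG close in sequence to Tgtp1, had 28.2, 10.2 and 5.61 CPM with SR-717 and 3.63, 6.26 and 5.84 CPM with H-151, with overlapping ranges. Its log2 fold change was 1.47 (unadjusted p = 0.0493, adjusted p = 0.996, edgeR), and without SR-717 replicate 1 it was 0.59 and not called. Counts of Tgtp2 are uncertain, because they were not whole: H-151 replicate 1 had 74.04 for Tgtp2 and 87.96 for Tgtp1. Of the same list, 8 of 9 were positive in SR-717 against PBS with 0 called, and 0 of 9 without SR-717 replicate 1 (median -0.29). In the fit blocked by replicate number 9 of 9 were positive there and Gbp8 was called. In H-151 against PBS, 1 of 9 was positive.

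The ligand was barely detected. Ifng had 22 counts in SR-717 replicate 1 (1.14 CPM), 2 counts in each of SR-717 replicates 2 and 3, 2, 1 and 0 counts with H-151 and 0 counts in all 3 PBS libraries, and it did not pass the filter on low counts. A count of 0 in a library allows up to 3 counts, which is above the 2 counts of the other SR-717 libraries. Ifnb1, Ifna2 and Ifna4, which encode type I interferons, had 0 counts in all 9 libraries, so their transcripts were not detectable at this depth. The receptor chains were expressed throughout: Ifngr1 ranged from 88.1 to 181 CPM and Ifngr2 from 86.5 to 159 CPM, each highest in SR-717 replicate 1 at 1.76-fold and 1.37-fold the median of the other 8 libraries. Of the 6 ligands and receptors tested, 0 were called in any comparison. For Ifngr1 and Ifngr2 the log2 fold changes were 0.34 and 0.30 against H-151, 0.29 and 0.24 for SR-717 against PBS, and -0.06 and -0.07 for H-151 against PBS. Those of Ifngr1 and Ifngr2 without SR-717 replicate 1 were 0.02 and 0.15 against H-151 and -0.04 and 0.09 against PBS.

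The transducers showed intermediate excesses. Irf1 had 224, 52.9 and 44.9 CPM with SR-717, 46.1, 39.5 and 42.4 CPM with H-151, and 70.8, 50.3 and 43.7 CPM with PBS. Jak2 reached 175 CPM in SR-717 replicate 1 against 22.3 to 57.3 CPM elsewhere, and Jak1 235 CPM against 122 to 188 CPM. For each of these 3 genes the highest library was SR-717 replicate 1 and PBS replicate 1 was second, as for most of the GTPases. The fold over the median of the other 8 libraries was 5.02 for Jak2, 4.92 for Irf1 and 1.66 for Jak1. Against H-151 the log2 fold changes were 1.32 (Irf1), 1.07 (Jak2) and 0.27 (Jak1), against PBS 0.96, 0.79 and 0.25, and between H-151 and PBS -0.36, -0.29 and -0.02. The values of Irf1, Jak2 and Jak1 without SR-717 replicate 1 were 0.19, -0.42 and -0.003 against H-151 and -0.17, -0.71 and -0.02 against PBS. Over 11 transducers, 11 were positive in SR-717 against H-151 (median 0.41), 10 in SR-717 against PBS (median 0.41) and 2 in H-151 against PBS (median -0.18), with 0 called in any of them. Leaving out SR-717 replicate 1, 4 of 11 were positive against H-151 (median -0.06) and 4 against PBS (median -0.11). The blocked fit called Irf8, a factor of myeloid cells, higher in SR-717 against PBS.

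Other targets of interferon-gamma had a median excess between those of the transducers and the GTPases, with single genes from 1.30-fold (Wars1) to 55.2-fold (Cd274, which encodes PD-L1). In SR-717 replicate 1 the median fold over the other 8 libraries was 3.52 for 15 such genes, 2.22 for the transducers, 1.71 for the ligands and receptors, 5.60 for the other GTPases and 9.00 for the 10. Of the 15 tested, 15 were positive in SR-717 against H-151 (median 0.94), 15 in SR-717 against PBS (median 0.82) and 0 in H-151 against PBS (median -0.20). The 1 call was Cxcl9, a chemokine that attracts T cells, with 108, 3.80 and 4.21 CPM in SR-717 and 5.25, 2.37 and 2.34 CPM in H-151 (log2 fold change 3.52, unadjusted p = 0.0464, adjusted p = 0.996, edgeR). Without SR-717 replicate 1 the value of Cxcl9 was 0.26, no gene of this list was called, and 9 of 15 were positive against H-151 (median 0.07) and 4 of 15 against PBS (median -0.20). In the blocked fit Psmb9, an immunoproteasome subunit, was called higher in SR-717 against PBS.

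The partners of these GTPases did not move as one group. The ATG8 conjugation genes, whose products GBPs and IRGs need to reach their target membranes, summed to 1295 CPM in SR-717 replicate 1, inside the range of 1189 to 1381 CPM of the other 8 libraries, and 5 of 10 were positive in SR-717 against H-151 with 0 called. The inflammasome and pyroptosis genes summed to 1702 CPM in SR-717 replicate 1 and to between 69.9 and 316 CPM elsewhere, with 0 of 9 called in any unblocked comparison of all libraries. Il1b alone gave 1350.5 CPM of the sum in SR-717 replicate 1 and 192.5 CPM in PBS replicate 1. In SR-717 replicate 1 the median fold of the 9 over the other 8 libraries was 4.30, from 1.18 (Il18) to 86.5 (Il1b). Blocked by replicate number, Il1b (1.98) and Nlrp3 (1.29) were called higher in SR-717 against PBS, and without SR-717 replicate 1 their values there were -1.94 and -1.27. The STING pathway genes summed to 426 CPM in SR-717 replicate 1 and to between 121 and 258 CPM elsewhere, with 0 of 6 called, 6 of 6 positive in SR-717 against H-151 and 5 of 6 in SR-717 against PBS. The numbers were 4 and 0 of 6 without SR-717 replicate 1. Sting1 itself, the target of both compounds, had 89.6, 38.4 and 42.3 CPM with SR-717, 48.1, 41.9 and 30.1 CPM with H-151, and 58.0, 36.5 and 31.6 CPM with PBS. Its log2 fold changes were 0.49 (SR-717 against H-151), 0.43 (SR-717 against PBS) and -0.07 (H-151 against PBS), none of them called, and without SR-717 replicate 1 the first was 0.002 and the second -0.06.

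**Figure D4:**
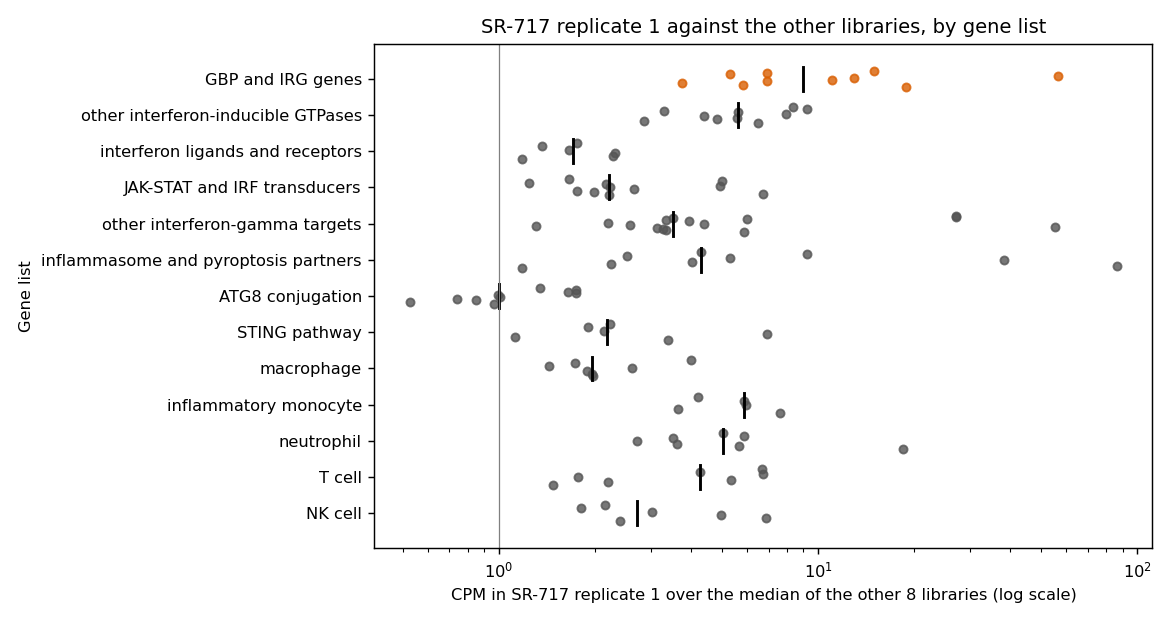
CPM in SR-717 replicate 1 divided by the median of the other 8 libraries (log axis), with 1 point per gene, 1 row per gene list and a black bar at the list's median, for genes whose median over the 8 libraries is above 0.2 CPM. The 10 GTPases (orange) have a median of 9.00, the other interferon-inducible GTPases 5.60, inflammatory monocyte markers 5.88, neutrophil markers 5.04 and ATG8 conjugation genes 0.999.

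Markers of several cell types moved with the GTPases in SR-717 replicate 1. Its summed level was the highest of the 9 libraries for 5 of 15 cell type lists: neutrophil (12039 CPM against 492 to 3721 elsewhere), inflammatory monocyte (1007 against 83.0 to 325), macrophage (2483 against 1045 to 1680), T cell (42.9 against 11.7 to 23.2) and NK cell (27.5 against 5.28 to 13.4). In each of those 5 lists every gene was highest in that library (7 of 7, 5 of 5, 7 of 7, 7 of 7 and 6 of 6). It was the lowest library for chondrocyte markers, at 247 CPM against 1434 to 14308 elsewhere, for which PBS replicate 1 was the second lowest. Its sums were the lowest as well for osteoblast (22367 CPM against 28842 to 44752), osteoclast (5648 against 5975 to 10670) and adipocyte markers (127 against 132 to 216). Not every gene of these lists was lowest in it. Runx2 was at 1.14-fold and Cfd at 1.49-fold the median of the other 8 libraries. Osteoclast genes lay at 0.428-fold (Calcr) to 0.708-fold (Mmp9) of that median, but H-151 replicate 2 was lower for Mmp9, Dcstamp and Atp6v0d2. Fabp4 gave 97.9 of the 127 CPM of adipocyte markers. Erythroid markers summed to 799 CPM in SR-717 replicate 1 and to between 428 and 13741 CPM elsewhere. The share of counts on mitochondrial genes in it was 7.33%, inside the range of 4.06% to 10.5% over the other libraries. The part of these cell types in the levels of the GTPases was not tested.

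Some marker lists held calls, all at unadjusted p (edgeR). In SR-717 against H-151, Prf1 (perforin of NK and cytotoxic T cells) was called higher at 2.30, and in SR-717 against PBS at 1.91. Its values without SR-717 replicate 1 were 1.26 and 0.88, neither of them called, and 6 of 6 NK cell genes stayed positive in both. Of the dendritic cell list 2 of 6 were called lower in SR-717 against H-151 (Siglech -1.91 and Cd209a -1.09), where 0.389% of genes tested were, while 3 of the 6 were positive and the median was 0.04. Ms4a1, of B cells, was called lower at -1.57. Without SR-717 replicate 1 Siglech was still called (-2.21), and Cd209a (-0.86) and Ms4a1 (-1.24) were not. In H-151 against PBS, Siglech was called higher at 1.89 (0.263% of genes tested were), and in the blocked fit it was 1.71 and not called. The replicate block called 7 of 7 neutrophil and 4 of 5 inflammatory monocyte markers higher in SR-717 against PBS, beside the 2.43% of all genes. It called 5 of 6 chondrocyte markers lower there (0.718% of genes tested). The unblocked fits, with and without SR-717 replicate 1, called 0 of 7, 0 of 5 and 0 of 6 of these. In H-151 against PBS the block called 4 of 7 neutrophil, 5 of 6 erythroid and 3 of 4 adipocyte markers higher (1.43% of genes tested). It also called 2 of 5 inflammatory monocyte and 2 of 6 B cell markers higher.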

How the data were processed

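Libraries from 9 callus samples were grouped by their treatment labels. The authors deposited expected counts, not normalized, and TPM values, scaled by them for gene length and library total; the build mm10 is named in the submitters' processing notes, and the aligner, counting program and annotation are not given in the sources used here. Neither is whether counting used strand, so counts of overlapping genes and near copies are uncertain. Expected counts were rounded, and differences were tested in R 4.3.3 by edgeR 4.0.16 (low counts removed by filterByExpr, with a minimum count of 10 and total of 15, TMM, quasi-likelihood test, no covariate) on the 6 libraries of 2 groups at a time, over all genes, with Benjamini-Hochberg adjustment. Calls used an unadjusted p under 0.05 with at least a 1.5-fold change, as in the paper, which names the DESeq method, and separately an adjusted p under 0.05. Log2 CPM had a prior count of 2. The script was tested on simulated data.

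The 10 genes, the 8 pathway lists and the 15 cell type lists were chosen with earlier results of these data known. Genes of a pathway list are named where called in the comparison described, at most 4 per list by smallest p, plus Ifng, Ifngr1, Ifngr2, Jak1, Jak2, Irf1 and Sting1 throughout. Genes named beside these were the 10 most like the GTPases, flanking genes and called marker genes, the latter groups chosen after their values were seen. Cxcl11, Gbp11, Gm12250 and Gm4070 were not analysed here, and 1 gene of the transducer list is not reported here.

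Same-numbered libraries are labelled 1 to 3 in each group, with no statement of what a number marks. Deviations from the group means correlated across genes at 0.65, 0.34 and 0.14 between SR-717 and PBS and at 0.30, 0.49 and 0.50 between H-151 and PBS. Between SR-717 and H-151 they correlated at 0.34, 0.06 and 0.08. The main fits were unpaired, and the replicate block was fitted as an alternative in every comparison. For SR-717 against H-151, where replicates 2 and 3 correlated weakly, only counts of calls are given from the block. Gene positions are from GENCODE on GRCm38 and promoters from RefSeq on GRCm38.p6. Alternatives were DESeq2 size factors, DESeq2 1.42.0, a minimum mean count of 50 or no filter, 1 fit over all 9 libraries, the replicate block, each library left out, and, added after seeing the data, SR-717 and PBS replicates 1 left out together.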

Additional observations from a re-analysis of the deposited data

How the results depend on the processing

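The direction of the GTPases was set by single libraries. With 1 library left out in turn, the number called ran from 0 to 9 in SR-717 against H-151 (1 with all libraries), from 0 to 5 in SR-717 against PBS (0) and from 0 to 2 in H-151 against PBS (0), and no member reached an adjusted p under 0.05 in any setting. Log2 fold changes that changed sign in at least 1 of these fits were, in SR-717 against H-151, Gbp2 -0.065 to 2.93, Gbp3 -0.37 to 2.07, Gbp9 -0.049 to 2.03, Irgm1 -0.096 to 1.20, Igtp -0.035 to 1.77 and Iigp1 -0.23 to 3.28, in SR-717 against PBS, Gbp2 -0.54 to 2.54, Gbp3 -1.11 to 1.32, Gbp5 -0.066 to 4.56, Gbp6 -0.39 to 2.65, Gbp7 -0.48 to 2.26, Gbp9 -0.27 to 1.89, Irgm1 -0.36 to 0.94, Igtp -0.31 to 1.49 and Iigp1 -0.38 to 3.13, and in H-151 against PBS, Gbp2 -0.76 to 0.10, Gbp4 -0.35 to 0.23, Gbp5 -0.96 to 0.41, Gbp6 -1.02 to 0.024, Gbp9 -0.50 to 0.34, Irgm1 -0.44 to 0.012, Igtp -0.58 to 0.0044 and Iigp1 -0.51 to 0.29. With SR-717 replicate 1 and PBS replicate 1 both left out, Gbp3 (-1.05), Gbp7 (-0.22), Igtp (-0.0093) and Irgm1 (-0.067) were negative in SR-717 against PBS. In SR-717 against H-151, 5 members were called with all 9 libraries in 1 fit, 2 of the 7 with a p in DESeq2's Wald test, and 0 with the replicate block. In SR-717 against PBS, 1 was called with all 9 libraries in 1 fit and 0 with the block. In H-151 against PBS, 1 was called with the block. The pairing changed no other call of a member. No other setting turned a sign, and the causes were not tested.

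Counts over all genes moved more. For SR-717 against H-151, 52 genes were higher and 55 lower, against 109 higher (all 9 libraries), 147 (DESeq2), 123 higher and 100 lower (no filter), 24 lower (mean count of at least 50) and 88 higher (block), with 19 to 544 higher and 36 to 170 lower when 1 library was left out. For SR-717 against PBS, 38 were higher and 35 lower, against 117 and 59 (all 9 libraries), 93 higher (DESeq2), 141 and 53 (no filter), 20 and 17 (mean count), 342 and 101 (block), 82 higher (both replicates 1 left out) and, with 1 library left out, 60 to 261 and 24 to 108. For H-151 against PBS, 37 were higher and 23 lower, against 39 lower (DESeq2), 89 and 38 (no filter), 17 and 11 (mean count), 201 and 61 (block) and, with 1 library left out, 30 to 482 and 13 to 216. A fit that left 2 libraries in a group took its spread from the remaining libraries of both groups.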
